A study of Mus musculus with 13 samples.

Results

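Whether the brain's transcriptional response to a stroke changes when microglia have been removed was read, gene by gene, as an interaction: the stroke change in depleted mice minus the stroke change in mice that kept their microglia. All 13 of the 13 libraries entered 1 model, and each came from the brain of a different male mouse. The groups were tMCAO_MG_DE (n = 2), sham_MG_DE (n = 4), tMCAO_MG_CON (n = 4) and sham_MG_CON (n = 3). By the labels, every mouse carried the genotype CX3CR1creER/+ with a Cre-dependent diphtheria toxin receptor, iDTR. Every mouse received 2 doses of tamoxifen at 7 to 8 weeks of age. After 30 days, the depleted groups (DE) received diphtheria toxin at 50 ng per g body weight on 3 days, and the controls (CON) received saline. In the tMCAO groups the right middle cerebral artery was blocked by a filament for 60 min and then reopened, and the sham groups had the surgery without occlusion. The surgery protocol gives an age of 6 to 8 weeks, which is below the tamoxifen age plus 30 days, so the age at surgery is uncertain. Neither the interval between occlusion and sampling nor the brain region sampled is stated in the sources used. The driver is also a limit of the model, because Cx3cr1 is expressed by microglia and by other mononuclear phagocytes, so the toxin can reach both.

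Microglia are the resident macrophages of the brain parenchyma and depend on signalling through the receptor Csf1r. After ischaemia they release cytokines and chemokines such as Il1b, Tnf and Ccl2, clear debris and change from a homeostatic to an activated expression state, while astrocytes become reactive and turn on Gfap and Vim, and blood leukocytes enter the tissue. An interaction below 0 means that the stroke change was more negative, or a rise smaller, in depleted than in control mice, and an interaction above 0 means the reverse. Because it is a difference between fold changes, it can differ from 0 through the level after stroke, the level after sham surgery or both. Levels are given as CPM, counts scaled to a common normalised library total, and changes as log2 fold changes ± their standard error from edgeR's quasi-likelihood test. A gene passed when its Benjamini-Hochberg adjusted p over all genes tested was below 0.05. “Without microglia” and “with microglia” stand for the depleted and the control mice. In brain tissue, fewer cells of a type and less RNA per cell cannot be told apart.

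Libraries held 16239763 to 22080367 counts, and 16940 of the 21056 genes shared by the tables were tested. Csf1r was at 6.08 and 8.51 CPM in tMCAO_MG_DE and 6.10 to 16.0 CPM in sham_MG_DE, against 76.4 to 97.4 CPM in tMCAO_MG_CON and 92.0 to 93.4 CPM in sham_MG_CON, so the depleted and control libraries did not overlap. Tmem119, a marker of parenchymal microglia, was at 0.171 to 2.50 CPM across the depleted libraries and at 13.4 to 18.6 CPM across the controls. The mitochondrial share of counts was 7.84% to 8.74% over the depleted and 9.03% to 9.86% over the control libraries, and its part in the results was not tested. A pair of sham libraries, sham_MG_DE 3 and sham_MG_CON 2, stood apart from the others. The neutrophil gene S100a9 was at 16.5 and 15.6 CPM in this pair and at 0.429 to 0.919 CPM in the other 5 sham libraries, and the insulin gene Ins2, listed only in the sham tables, had 75 counts in each library of the pair and 0 in each of the other 5. Among the stroke libraries S100a9 was at 6.18 CPM in tMCAO_MG_DE 1 and 0.962 CPM in tMCAO_MG_DE 2, against 0.631 to 2.06 CPM in tMCAO_MG_CON. The driver gene Cx3cr1 was at 24.2 CPM in sham_MG_CON 2 but at 1.05 to 2.09 CPM in the other 6 control libraries. All of them are labelled CX3CR1creER/+, which was not checked here, and the cause of the difference was not tested. The treatment entry of tMCAO_MG_CON 4 reads sham surgery, against its title. Gfap, at 924 CPM in this library and at 667 to 1012 CPM in the group, was far above the 51.0 to 91.4 CPM of sham_MG_CON. Results are therefore also given without the pair.

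Of the 16940 genes tested, 8 (0.0472%) passed in the interaction with edgeR, 7 with a value below 0 (0.0413%) and 1 with a value above 0 (0.0059%). At an unadjusted p below 0.05 there were 1021 genes below 0 (6.03%) and 626 above 0 (3.7%). The median interaction over all genes tested was -0.02. DESeq2 called 107 of 17360 genes, and limma called 23 of 16940 on log2(FPKM + 0.1) and 32 on log2(FPKM + 1). The 7 lower genes were Yipf6, Lilrb4a, Lilr4b, Ccl12, Lpl, Cd180 and Tlr13, and the gene that was higher was Lingo3. Without sham_MG_DE 3 and sham_MG_CON 2 only Yipf6 passed (adjusted p = 0.00357), while the other 7 genes kept their direction with adjusted p values of 0.0849 to 0.0984. With 1 library left out at a time, the number of genes that passed was 1 without sham_MG_DE 3, 2 without sham_MG_CON 1, 3 without sham_MG_CON 3 or tMCAO_MG_DE 1, 5 without sham_MG_DE 2 or tMCAO_MG_DE 2, and 15 without sham_MG_DE 1.

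**Figure D1:**
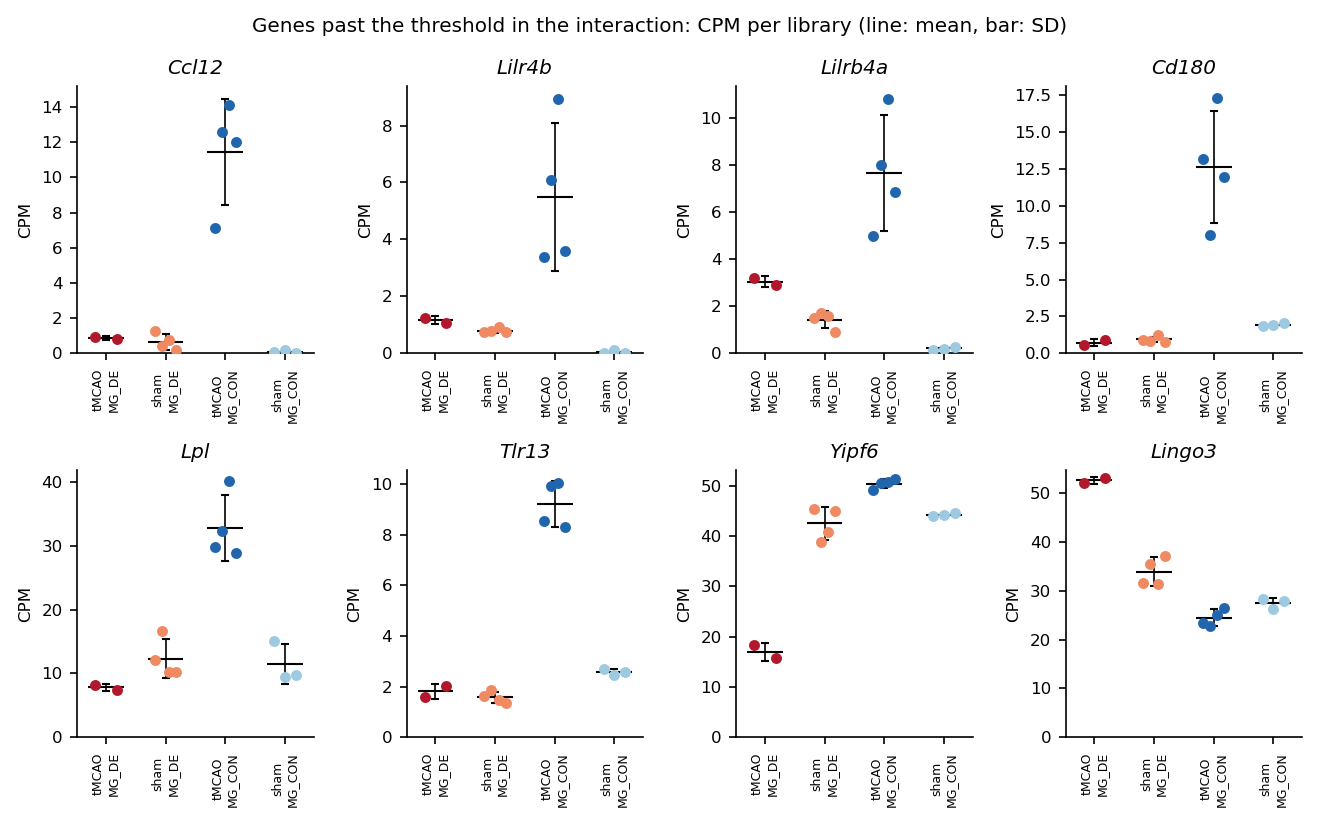
CPM of the 8 genes past the threshold in the interaction (y axis, linear, from 0) in each library of the 4 groups (x axis), with the group mean as a line and the SD as a bar. For 6 genes tMCAO_MG_CON stands above every other group. Yipf6 is lowest in tMCAO_MG_DE at 15.7 and 18.3 CPM, and Lingo3 is highest there at 52.2 and 53.1 CPM.

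Ccl12 encodes a CC chemokine that attracts monocytes, and lies on chromosome 11 at chr11:82101845-82103400 on the plus strand of GRCm38, with 3 exon blocks. It was at 0.954 and 0.810 CPM in tMCAO_MG_DE and at 1.24, 0.409, 0.731 and 0.171 CPM in sham_MG_DE, against 7.12, 12.6, 14.1 and 11.98 CPM in tMCAO_MG_CON and 0.0536, 0.179 and 0 CPM in sham_MG_CON. All 4 tMCAO_MG_CON libraries lay above every other library, and the depleted stroke libraries lay within the range of the depleted sham libraries. The stroke change was 0.47 ± 0.57 without microglia (adjusted p = 0.636) and 7.12 ± 0.63 with them (adjusted p = 3.58e-05), on 4 counts in all of sham_MG_CON. The interaction was -6.65 ± 0.93 with an adjusted p of 0.0276.

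Lilrb4a (chr10:51490956-51496611, plus strand) and its neighbour Lilr4b (chr10:51480632-51486703, plus strand) encode leukocyte immunoglobulin-like receptors of myeloid cells. Lilrb4a was at 3.21 and 2.89 CPM in tMCAO_MG_DE and at 1.51, 1.73, 1.58 and 0.912 CPM in sham_MG_DE, against 4.97, 8.01, 10.8 and 6.84 CPM in tMCAO_MG_CON and 0.161, 0.179 and 0.282 CPM in sham_MG_CON. No groups overlapped, and Lilrb4a rose after stroke in both arms, by 1.08 ± 0.30 without microglia (adjusted p = 0.0360) and by 5.16 ± 0.38 with them (adjusted p = 8.45e-06). Its interaction was -4.08 ± 0.51 (adjusted p = 0.0187). Lilr4b was at 1.26 and 1.06 CPM in tMCAO_MG_DE and at 0.757, 0.773, 0.914 and 0.741 CPM in sham_MG_DE, against 3.37, 6.09, 8.94 and 3.59 CPM in tMCAO_MG_CON and 0, 0.120 and 0 CPM in sham_MG_CON. With 414 counts in tMCAO_MG_CON and 2 in sham_MG_CON, its stroke ratio with microglia was 143, with a 95% counting interval of 39.4 to 1190. The fitted interaction of -6.41 ± 0.88 (adjusted p = 0.0276) rests on those 2 counts. The 2 genes are close copies and both share exons with Gm49339 on the same strand, so how their reads were divided is uncertain.

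Cd180 and Tlr13 belong to the recognition of microbial and nucleic acid patterns: Cd180 is a Toll-like receptor relative that modulates Tlr4 signalling, and Tlr13 senses bacterial ribosomal RNA in mice. Cd180 (chr13:102693558-102739629, plus strand) was at 0.552 and 0.911 CPM in tMCAO_MG_DE and at 0.919, 0.864, 1.22 and 0.798 CPM in sham_MG_DE, against 13.2, 8.06, 17.3 and 11.9 CPM in tMCAO_MG_CON and 1.88, 1.91 and 2.03 CPM in sham_MG_CON. Its level in the depleted groups overlapped and lay below both control groups. The stroke change was -0.37 ± 0.37 without and 2.69 ± 0.25 with microglia, and the interaction was -3.06 ± 0.44 (adjusted p = 0.0276). Cd180 overlaps Mast4 on the opposite strand, and whether counting used strand is not given. Tlr13 (chrX:106143204-106160493, plus strand) was at 1.61 and 2.03 CPM in tMCAO_MG_DE and at 1.62, 1.86, 1.46 and 1.37 CPM in sham_MG_DE, against 8.55, 9.93, 10.1 and 8.29 CPM in tMCAO_MG_CON and 2.68, 2.45 and 2.60 CPM in sham_MG_CON. Here too the depleted groups overlapped and lay below the controls. The interaction of Tlr13 was -1.64 ± 0.25 (adjusted p = 0.0365).

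Lpl encodes lipoprotein lipase, an enzyme of lipid uptake that is also a marker of activated microglia (chr8:68880491-68907448, plus strand). It was at 8.24 and 7.39 CPM in tMCAO_MG_DE and at 12.1, 16.7, 10.3 and 10.3 CPM in sham_MG_DE, against 29.8, 32.3, 40.2 and 28.9 CPM in tMCAO_MG_CON and 15.1, 9.45 and 9.83 CPM in sham_MG_CON. The depleted stroke libraries were the lowest of the 13, and the sham groups overlapped. Lpl changed by -0.66 ± 0.24 without microglia (adjusted p = 0.0857) and rose by 1.52 ± 0.20 with them (adjusted p = 0.000910), an interaction of -2.18 ± 0.31 (adjusted p = 0.0276).

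Yipf6, a membrane protein of the Golgi apparatus (chrX:98936316-98949017, plus strand), had the smallest p of all genes. It was at 18.3 and 15.7 CPM in tMCAO_MG_DE and at 45.5, 38.8, 40.9 and 45.0 CPM in sham_MG_DE, against 49.1, 50.4, 50.7 and 51.3 CPM in tMCAO_MG_CON and 43.9, 44.1 and 44.6 CPM in sham_MG_CON. The depleted stroke libraries were apart from all others. Yipf6 fell by 1.32 ± 0.09 on the log2 scale after stroke without microglia (adjusted p = 8.49e-06), and changed by 0.19 ± 0.08 with them (adjusted p = 0.146). The interaction was -1.51 ± 0.12 (adjusted p = 0.000143), and Yipf6 passed in 24 of 24 alternative settings. Lingo3, of the LINGO family of neuronal leucine-rich repeat proteins (chr10:80832801-80844039, minus strand), was at 52.2 and 53.1 CPM in tMCAO_MG_DE and at 31.7, 35.5, 31.4 and 37.2 CPM in sham_MG_DE, against 23.5, 22.8, 25.1 and 26.6 CPM in tMCAO_MG_CON and 28.3, 26.3 and 27.9 CPM in sham_MG_CON. It rose by 0.63 ± 0.09 without microglia (adjusted p = 0.00137) and changed by -0.17 ± 0.08 with them (adjusted p = 0.243), an interaction of 0.80 ± 0.12 (adjusted p = 0.0405). Of the 13 fits that each left out 1 library, Lilrb4a passed in 9, Ccl12 in 8, Lilr4b and Lpl in 7, Cd180 in 6, Lingo3 in 3, Tlr13 in 2 and Yipf6 in 13. Leaving out sham_MG_DE 3, tMCAO_MG_DE 1 or tMCAO_MG_DE 2 ended the call of each gene but Yipf6.

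The 2 depletion contrasts show where each interaction arose. Ccl12, Lilrb4a and Lilr4b were higher in sham_MG_DE than in sham_MG_CON and lower in tMCAO_MG_DE than in tMCAO_MG_CON, as for Lilrb4a with 2.76 ± 0.42 after sham surgery (adjusted p = 0.00298) and -1.32 ± 0.30 after stroke (adjusted p = 0.0110). Lpl and Yipf6 were lower with depletion after stroke, by -2.07 ± 0.25 and -1.57 ± 0.09, and did not pass after sham surgery. Cd180 and Tlr13 were lower with depletion in both states, and Lingo3 was higher in both. For all 8 genes the difference of the differences in mean CPM had the same sign as the log2 interaction.

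Promoters were read for the 8 genes that passed, whose directions and patterns differed. Of the 8 genes, 6 had a 300-base window, from 250 bases before to 50 after the start site, in the RefSeq table for GRCm38.p6. Each window was searched on both strands for GAGGAAG (PU.1 and other ETS factors), TGANTCA (AP-1) and TTGCNNAA (C/EBP). These letters stand in 13.6%, 7.81% and 10.8% of 32851 promoters in that order. The Tlr13 window held a GAGGAAG that begins 83 bases before the RefSeq start site and a C/EBP match on the minus strand at that site, both in capitals below. RefSeq's start of Tlr13 lies 71 bases downstream of the gene start in GENCODE, from which the GAGGAAG begins 12 bases upstream, and that of Yipf6 lies 1465 bases downstream. The windows of the other 5 genes held none, and that of Ccl12, the gene with the lowest interaction, is shown beside it.
Tlr13, chrX:106143025-106143324, plus strand: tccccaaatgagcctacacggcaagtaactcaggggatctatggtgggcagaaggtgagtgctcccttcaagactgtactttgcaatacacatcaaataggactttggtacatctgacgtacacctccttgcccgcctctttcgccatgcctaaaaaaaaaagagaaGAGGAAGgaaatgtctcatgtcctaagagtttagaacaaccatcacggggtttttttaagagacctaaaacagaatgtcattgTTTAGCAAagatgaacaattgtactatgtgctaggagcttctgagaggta
Ccl12, chr11:82101595-82101894, plus strand: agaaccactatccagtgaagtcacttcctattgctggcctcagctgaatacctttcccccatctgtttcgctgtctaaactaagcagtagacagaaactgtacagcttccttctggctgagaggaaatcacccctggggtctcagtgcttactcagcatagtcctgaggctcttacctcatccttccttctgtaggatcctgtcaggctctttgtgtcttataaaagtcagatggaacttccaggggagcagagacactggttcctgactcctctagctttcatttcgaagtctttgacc

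The interaction was then used to sort the stroke genes, those that passed between tMCAO_MG_CON and sham_MG_CON with a change of at least 2-fold. They numbered 465, or 2.74% of the genes tested, with 432 rises and 33 falls. For 6 rises (1.29%) the change was smaller without microglia: Ccl12, Lilr4b, Lilrb4a, Cd180, Lpl and Tlr13. For 0 genes was it larger with edgeR, while 5 reached an unadjusted p below 0.05 in that direction and DESeq2 placed 1 there. A further 62 genes (13.3%), 56 rises and 6 falls, were alike within 2-fold. For these the interaction did not pass and its 95% interval lay within 1 log2 unit of 0. The class also required that the stroke contrast without microglia passed in the same direction. The remaining 397 (85.4%) were undecided. At an unadjusted p below 0.05, 134 of the undecided rises and 7 of the undecided falls leaned to a smaller and 5 undecided genes to a larger change. Of the undecided, 151 also passed in the stroke contrast without microglia in the same direction, in which 12.4% of all genes passed in either direction. With edgeR the smaller class held 0 genes without the pair, without sham_MG_DE 3 and without either tMCAO_MG_DE library, 1 without sham_MG_CON 1, 2 without sham_MG_CON 3 and 3 without sham_MG_DE 2. The alike class held 28 genes without tMCAO_MG_DE 1 and 25 without tMCAO_MG_DE 2, and 243 and 230 were undecided without sham_MG_CON 1 and without sham_MG_CON 3. The median standard error of the interaction was 0.53 in the undecided and 0.29 in the alike genes.

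**Figure D2:**
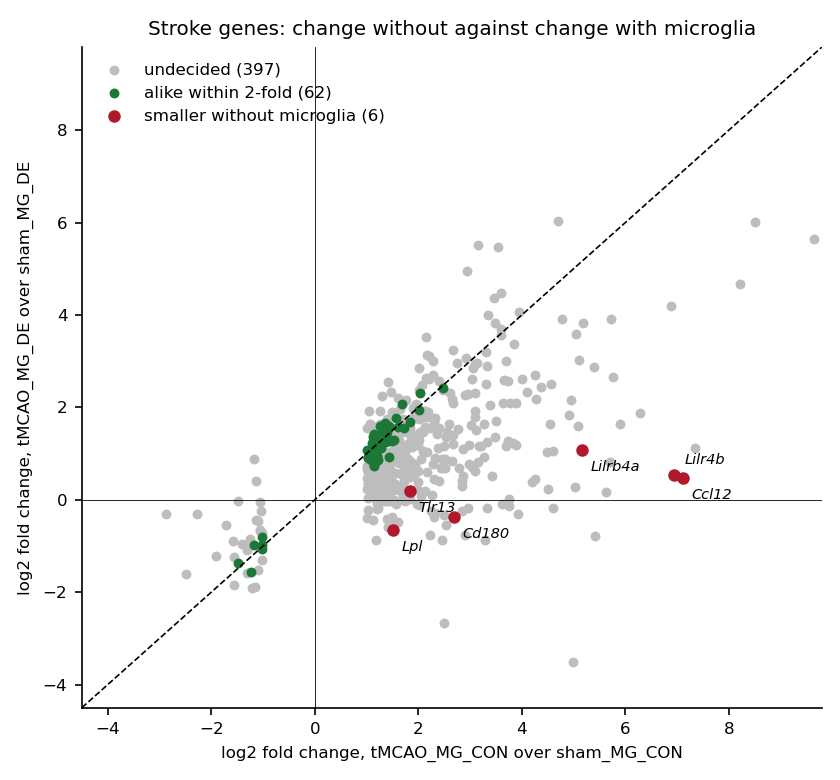
Log2 fold change of each of the 465 stroke genes in depleted mice (y axis, tMCAO_MG_DE over sham_MG_DE) against that in control mice (x axis, tMCAO_MG_CON over sham_MG_CON), coloured by class. The dashed line marks equal changes, the 62 alike genes lie along it, and the 6 genes smaller without microglia lie between -0.66 (Lpl) and 1.08 (Lilrb4a) on the y axis.

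How the rises compared between the arms depended on the contrast that chose them. The 432 rises chosen with microglia present had a median change of 1.07 without and 1.73 with microglia, and a median interaction of -0.68. Chosen by the mean of both stroke contrasts instead, 523 rises had a median interaction of -0.18, and 358 rises chosen by the contrast without microglia had one of 0.36. These choices took 3.52% and 2.82% of all genes, falls included. The first set was chosen on the arm with microglia, and its median is given as a description only. Of the 134 undecided rises that leaned smaller, 47 were lower with depletion after stroke and not past the threshold after sham surgery, 29 were higher with depletion after sham surgery and not past it after stroke, and 33 passed in neither. A further 13 were lower in both, 7 were higher in both, and 5 were higher after sham surgery and lower after stroke. For 8 of the 134 the stroke difference in mean CPM was larger without microglia although the fold change was smaller.

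The alike genes are described by those with the largest stroke changes. Tnfrsf1a, the main receptor for Tnf, was at 35.0 and 36.3 CPM in tMCAO_MG_DE and at 9.35, 6.82, 6.40 and 6.27 CPM in sham_MG_DE, against 28.9, 38.7, 43.7 and 26.4 CPM in tMCAO_MG_CON and 7.89, 9.93 and 7.46 CPM in sham_MG_CON. Stroke and sham libraries were apart in both arms, and the depleted ranges overlapped the control ranges. Tnfrsf1a rose by 2.30 ± 0.20 without (adjusted p = 5.78e-05) and 2.03 ± 0.20 with microglia (adjusted p = 6.49e-05), with an interaction of 0.27 and a 95% interval of -0.33 to 0.87. Mt2, a metal-binding metallothionein, was at 377 and 293 CPM in tMCAO_MG_DE and at 69.1 to 89.7 CPM in sham_MG_DE, against 138 to 259 CPM in tMCAO_MG_CON and 47.1 to 68.5 CPM in sham_MG_CON. It rose by 2.07 ± 0.20 without and 1.69 ± 0.20 with microglia, and its interval of -0.23 to 0.99 reached almost to the 2-fold limit. Vim, the intermediate filament vimentin of reactive astrocytes and vessels, was at 68.5 and 63.0 CPM in tMCAO_MG_DE and at 15.7 to 21.8 CPM in sham_MG_DE, against 53.7 to 102 CPM in tMCAO_MG_CON and 16.0 to 30.0 CPM in sham_MG_CON, with rises of 1.77 ± 0.25 and 1.57 ± 0.24. Of the alike genes with the largest stroke changes, Parp3, a poly(ADP-ribose) polymerase, rose by 1.68 ± 0.14 without and 1.83 ± 0.14 with microglia, and Msn, which links the membrane to actin, by 1.28 ± 0.21 and 1.53 ± 0.20. Zfp36, Plce1, Cyp1b1 and Glipr2 were also alike, as was the processed pseudogene Hsp25-ps1, whose counts may include reads of its parent gene. Alike genes passed in both arms by the definition of the class. Chosen after their values were seen, Stat3 rose by 1.33 ± 0.12 without and 1.30 ± 0.11 with microglia, and Myd88, the adaptor of Toll-like and interleukin-1 receptors, by 1.24 ± 0.18 and 1.38 ± 0.16. Egr1, an immediate early gene of neurons, fell in both arms, with changes of -1.36 ± 0.28 without and -1.48 ± 0.23 with microglia.

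**Figure D3:**
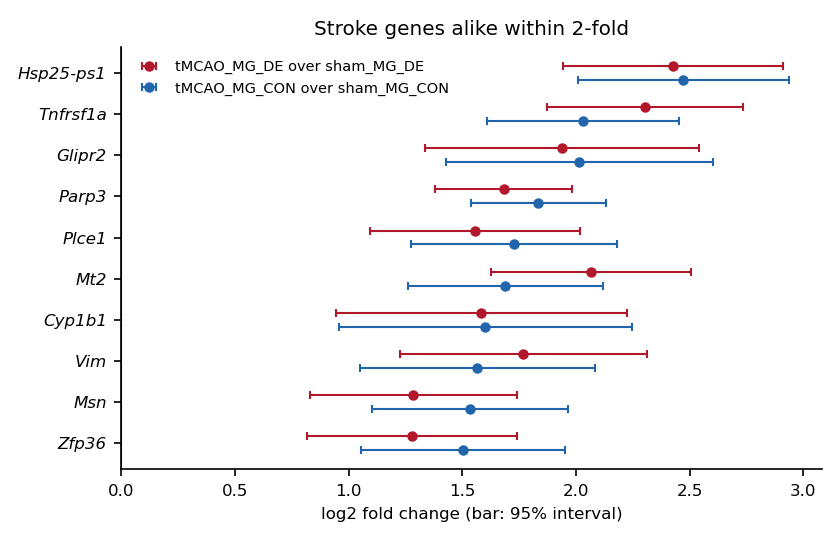
Log2 stroke change (x axis) with its 95% interval for the 10 alike genes with the largest change in control mice, in depleted mice (red) and in control mice (blue). For each gene both intervals lie above 0 and overlap, as for Tnfrsf1a at 2.30 and 2.03. That they lie above 0 follows from the class, which required passing in both arms.

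Of 11 tested genes named for interleukin-1 signalling and neutrophil recruitment, a set that also held Gfap and Cx3cr1, 5 were undecided stroke genes (Il1rn, Il1b, Cxcl1, Icam1 and Gfap), 5 were not stroke genes by the rule above (Il1a, Cxcl2, Cxcr2, Mpo and Cx3cr1) and Il1r1 was alike. With edgeR 0 of the 11 passed in the interaction, and the 5 undecided genes were below 0 at an unadjusted p below 0.05, while DESeq2 called Icam1 and Gfap, and limma Gfap. Il1rn, the natural antagonist of the interleukin-1 receptor, was at 0.452 and 0.152 CPM in tMCAO_MG_DE and at 0.0541, 0.0455, 0.305 and 0 CPM in sham_MG_DE, against 0.993, 2.69, 5.12 and 2.33 CPM in tMCAO_MG_CON and 0, 0.0598 and 0.169 CPM in sham_MG_CON. All tMCAO_MG_CON libraries were above the other 9, but the interaction of -3.48 ± 1.59 did not pass (adjusted p = 0.511). Il1b was at 0.854 and 0.253 CPM in tMCAO_MG_DE and at 0.500 to 0.731 CPM in sham_MG_DE, against 0.717 to 1.18 CPM in tMCAO_MG_CON and 0.161 to 0.479 CPM in sham_MG_CON, so the depleted groups overlapped, and its interaction of -1.78 ± 0.70 did not pass (adjusted p = 0.453). The receptor Il1r1 was alike within 2-fold, with rises of 1.43 ± 0.28 without and 1.27 ± 0.26 with microglia. The interaction of Il1a was 1.31 ± 0.90 (adjusted p = 0.664).

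Cxcl1, a chemokine for neutrophils, was at 7.28 and 5.97 CPM in tMCAO_MG_DE and at 1.78, 3.41, 2.93 and 2.74 CPM in sham_MG_DE, against 0.552, 2.21, 3.00 and 0.631 CPM in tMCAO_MG_CON and 0.215, 0 and 0.113 CPM in sham_MG_CON. The depleted sham libraries lay in or near the range of the control stroke libraries. In mean CPM the stroke difference was 3.91 without and 1.49 with microglia, whereas the fold change was smaller without them, and the interaction of -2.45 ± 1.01 did not pass (adjusted p = 0.468) and was 0.23 with limma on log2(FPKM + 1). Icam1, an endothelial and myeloid adhesion molecule that leukocytes bind, was at 13.6 and 11.5 CPM in tMCAO_MG_DE and at 9.52, 17.2, 11.5 and 11.9 CPM in sham_MG_DE, against 6.51, 7.29, 10.8 and 7.18 CPM in tMCAO_MG_CON and 1.61, 4.01 and 1.58 CPM in sham_MG_CON. The depleted stroke and sham libraries overlapped, and sham_MG_CON lay below all others. Its interaction was -1.73 ± 0.45 (adjusted p = 0.246). Cxcl2 had an interaction of -0.33 ± 1.11 (adjusted p = 0.951) and Mpo of 1.60 ± 1.92 (adjusted p = 0.828), and both signs changed in other settings. The neutrophil receptor Cxcr2 had 17 and 3 counts in tMCAO_MG_DE and 0, 0, 3 and 0 in sham_MG_DE, against 0, 2, 9 and 0 in tMCAO_MG_CON and 0 in each sham_MG_CON library. Most counts of each group with any came from 1 library, so no ratio is given. Ly6g was below the count filter, with 20 counts in all libraries. Over the 11 tested genes of the neutrophil list the summed level was 39.4 and 62.3 CPM in tMCAO_MG_DE and 9.25 to 43.7 CPM in sham_MG_DE, against 19.8 to 44.7 CPM in tMCAO_MG_CON and 12.3 to 50.1 CPM in sham_MG_CON. Of the 11, 0 passed with edgeR, DESeq2 or limma or reached an unadjusted p below 0.05, with a median standard error of 1.91. Their median interaction was 1.28, with 3 of the 11 estimates below 0, and it ranged from -0.42 to 2.14 over 18 other settings.

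**Figure D4:**
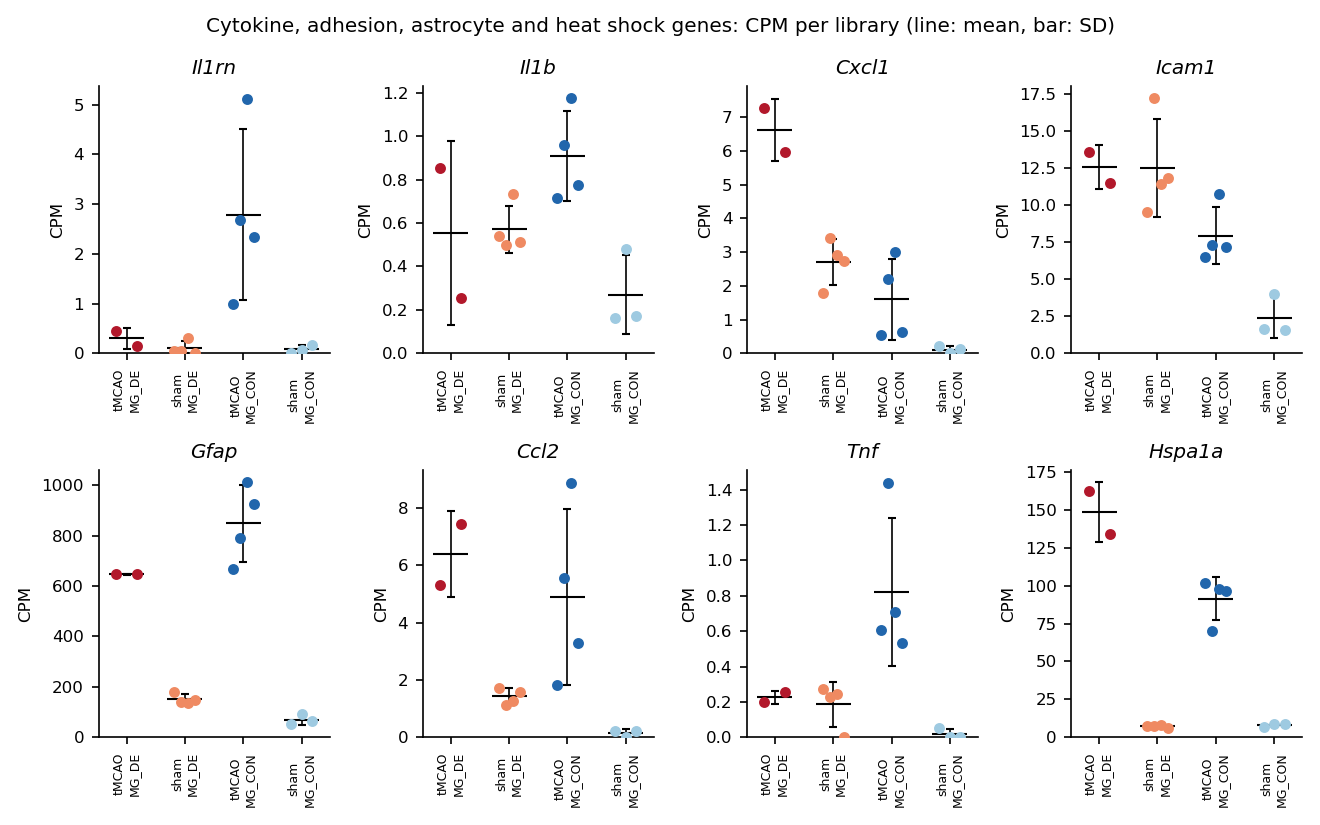
CPM of 8 cytokine, adhesion, astrocyte and heat shock genes (y axis, linear, from 0) in each library of the 4 groups (x axis), with the group mean as a line and the SD as a bar. Cxcl1 is highest in tMCAO_MG_DE at 5.97 and 7.28 CPM, whereas Il1rn is highest in tMCAO_MG_CON at 0.993 to 5.12 CPM.

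Gene groups were read by how many members reached an unadjusted p below 0.05, against 6.03% below and 3.7% above 0 over all genes, and by their median interaction, against -0.02 over all genes. Members called by DESeq2 stand against 107 of 17360 genes, and those called by limma against 23 and 32 of 16940 at the smaller and larger pseudocount. For every list below, members that rose in the stroke contrasts stand against 6.59% of all genes without and 5.14% with microglia. Of 20 markers of activated microglia and macrophages, 8 were below 0 at an unadjusted p below 0.05 and 0 above, with a median of -0.72. With edgeR 1 (Lpl) passed, while DESeq2 called 6 of the 20 and limma 1 at each pseudocount. In the stroke contrasts 6 of the 20 rose without and 13 with microglia. Msr1, a scavenger receptor, was at 2.71 and 4.15 CPM in tMCAO_MG_DE and at 1.35, 0.500, 1.83 and 0.798 CPM in sham_MG_DE, against 6.62, 18.4, 14.8 and 11.0 CPM in tMCAO_MG_CON and 0.268, 0.179 and 0.169 CPM in sham_MG_CON, and no groups overlapped. It rose by 1.64 ± 0.45 without (adjusted p = 0.0310) and by 5.90 ± 0.54 with microglia (adjusted p = 5.03e-05). Its interaction of -4.25 ± 0.76 did not pass with edgeR (adjusted p = 0.0887). Lgals3, galectin-3, had an interaction of -3.55 ± 0.64 with the same adjusted p. Msr1 and Lgals3 each passed in 2 of 24 alternative settings. Of 22 homeostatic microglia genes 2 were below and 2 above 0, with a median of -0.39, and 0 passed with edgeR or DESeq2 and 1 with limma on log2(FPKM + 1). They were low with depletion in both states: 22 of 22 fell after sham surgery, where 4.49% of all genes were lower, and 21 after stroke, where 9.26% were. Crybb1 had an interaction of 2.06 ± 0.53 (adjusted p = 0.233) and C1qb of -0.78 ± 0.34 (adjusted p = 0.490).

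Border macrophages line the meninges and vessels. Of the 11 tested genes of their list, 8 were below 0 at an unadjusted p below 0.05, with a median of -1.56, and 0 passed with edgeR, DESeq2 or limma. After sham surgery 8 of the 11 were higher with depletion, against 6.85% of all genes, and 4 were after stroke, against 9.36%. Cd163, a haemoglobin scavenger receptor, was at 3.26 and 5.16 CPM in tMCAO_MG_DE and at 3.19, 3.91, 5.36 and 4.45 CPM in sham_MG_DE, against 0.772, 1.97, 2.00 and 2.28 CPM in tMCAO_MG_CON and 0.536, 0.658 and 0.395 CPM in sham_MG_CON. All depleted libraries were above all controls, and its interaction was -1.73 ± 0.52 (adjusted p = 0.333). F13a1, the A chain of coagulation factor XIII, was at 10.4 and 14.2 CPM in tMCAO_MG_DE and at 9.14 to 13.7 CPM in sham_MG_DE, against 3.79 to 6.01 CPM in tMCAO_MG_CON and 1.56 to 2.75 CPM in sham_MG_CON. The list's summed level was 62.1 and 81.0 CPM in tMCAO_MG_DE and 59.0 to 78.1 CPM in sham_MG_DE, against 40.1 to 64.8 CPM in tMCAO_MG_CON and 22.6 to 34.7 CPM in sham_MG_CON, and its part in the other interactions was not tested. Of 8 tested monocyte genes 1 was below and 1 above 0 at an unadjusted p below 0.05, with a median of -0.105. Over 18 other settings this median ranged from -1.02 to 0.39. The gene below was Fn1, with an interaction of -0.82 (adjusted p = 0.46). The gene above was Arg1, arginase of wound-type macrophages, at 0.703 and 2.53 CPM in tMCAO_MG_DE and 0 to 0.171 CPM in sham_MG_DE, against 0.0970 to 0.412 CPM in tMCAO_MG_CON and 0.0565 to 0.239 CPM in sham_MG_CON, with an interaction of 4.08 ± 1.29 (adjusted p = 0.334).

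Among the chemokines, 4 of 9 CC genes and 4 of 9 CXC genes were below 0 at an unadjusted p below 0.05 and 0 above, with medians of -1.16 and -1.10. Of the CC genes only Ccl12 passed with edgeR, while DESeq2 called 3 and limma 1 at each pseudocount. No CXC gene passed with edgeR or limma, while DESeq2 called 2. Ccl2, the main monocyte attractant, was at 5.32 and 7.44 CPM in tMCAO_MG_DE and at 1.73, 1.14, 1.28 and 1.60 CPM in sham_MG_DE, against 1.82, 5.56, 8.88 and 3.30 CPM in tMCAO_MG_CON and 0.215, 0 and 0.226 CPM in sham_MG_CON. The stroke libraries of both arms overlapped, and the sham libraries did not. Ccl2 rose by 2.15 ± 0.49 without (adjusted p = 0.0138) and 4.96 ± 0.67 with microglia (adjusted p = 0.000962), and the interaction of -2.81 ± 0.91 did not pass (adjusted p = 0.345). Ccl3 had 0.151 and 0.405 CPM in tMCAO_MG_DE and 0.114 to 0.409 CPM in sham_MG_DE, against 1.89 to 5.29 CPM in tMCAO_MG_CON and 0.0598 to 0.268 CPM in sham_MG_CON, so only the control stroke libraries stood apart, with an interaction of -3.81 ± 0.97 (adjusted p = 0.233). Cxcl10, an interferon-inducible chemokine, had an interaction of -3.44 ± 0.93 (adjusted p = 0.276).

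Of 16 Toll-like receptor and inflammasome genes, 6 were below and 1 above 0, with a median of -0.47. Tlr13 passed with edgeR, DESeq2 called 5, and limma called 2 at the smaller and 3 at the larger pseudocount. Tlr1, Tlr2 and Nlrp3, which did not pass with edgeR, each passed in 3 of 24 alternative settings. Tlr1 was at 0.201 and 0.304 CPM in tMCAO_MG_DE and 0.171 to 0.546 CPM in sham_MG_DE, against 3.10 to 4.65 CPM in tMCAO_MG_CON and 0.483 to 0.791 CPM in sham_MG_CON, with an interaction of -3.08 ± 0.59 (adjusted p = 0.112). Tlr2, a receptor for lipopeptides, was at 1.51 and 1.92 CPM in tMCAO_MG_DE and at 1.35 to 4.96 CPM in sham_MG_DE, against 3.86 to 7.12 CPM in tMCAO_MG_CON and 0.598 to 1.30 CPM in sham_MG_CON, and its interaction was -3.32 ± 0.62 (adjusted p = 0.112). Nlrp3, the sensor of an inflammasome, fell after stroke without microglia (-2.27 ± 0.61, adjusted p = 0.0298) and changed by 1.13 ± 0.49 with them (adjusted p = 0.185), with an interaction of -3.40 ± 0.79 (adjusted p = 0.202). Of 13 complement genes, 5 were below 0 and 0 above, with a median of -0.64. C5ar1, the receptor for the fragment C5a, was at 1.56 and 1.37 CPM in tMCAO_MG_DE and at 0.853 to 1.25 CPM in sham_MG_DE, against 5.02 to 9.59 CPM in tMCAO_MG_CON and 0.215 to 1.20 CPM in sham_MG_CON, with an interaction of -2.90 ± 0.58 (adjusted p = 0.131). C4b, which astrocytes also express, rose by 1.63 ± 0.27 without (adjusted p = 0.00280) and 3.03 ± 0.28 with microglia (adjusted p = 5.17e-05). No complement gene passed the interaction with edgeR, and 2 did with DESeq2 and 1 with limma.

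Of 16 TNF and NF-kB genes, 3 were below 0 and 0 above, with a median of -0.43, and 0 passed with edgeR, DESeq2 or limma. Tnf itself had 64 counts in tMCAO_MG_CON and 1 in sham_MG_CON, too few for a stable fold, and was at 0.201 and 0.253 CPM in tMCAO_MG_DE against 0.534 to 1.44 CPM in tMCAO_MG_CON. Bcl3, a nuclear regulator of NF-kB, rose in both arms, by 2.43 ± 0.39 without (adjusted p = 0.00240) and 4.37 ± 0.48 with microglia (adjusted p = 0.000203). Of 14 interleukin-6 family and STAT3 genes 10 rose without and 10 with microglia. In the interaction 1 was below and 2 above 0, and the median of -0.15 ranged from -0.35 to 0.01 over 18 other settings. Osmr, the oncostatin M receptor, was at 52.1 and 42.7 CPM in tMCAO_MG_DE and at 6.22 to 8.95 CPM in sham_MG_DE, against 36.4 to 56.2 CPM in tMCAO_MG_CON and 4.13 to 6.64 CPM in sham_MG_CON, and rose by 2.61 ± 0.19 and 3.03 ± 0.20 in the depleted and control mice. Its interval of -1.02 to 0.17 just exceeded the 2-fold limit. Of 20 interferon-stimulated genes, 10 rose without and 16 with microglia, 2 were below 0 in the interaction and 0 above, and the median of -0.15 was 0.21 in 1 of the 18 settings. No interferon-stimulated gene passed with edgeR or limma, and DESeq2 called 1.

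Reactive astrocyte genes rose in both arms. Of 13 pan-reactive genes, 11 rose without and 12 with microglia, 2 were below 0 in the interaction and 0 above, and the median was -0.49. Gfap, the intermediate filament of astrocytes, was at 646 and 648 CPM in tMCAO_MG_DE and at 180, 139, 137 and 150 CPM in sham_MG_DE, against 667, 790, 1012 and 924 CPM in tMCAO_MG_CON and 51.0, 91.4 and 63.4 CPM in sham_MG_CON. The 4 groups did not overlap. Gfap rose by 2.09 ± 0.19 without (adjusted p = 7.12e-05) and 3.63 ± 0.20 with microglia (adjusted p = 1.19e-06), and the interaction of -1.53 ± 0.27 did not pass (adjusted p = 0.0887). With depletion it was higher after sham surgery, by 1.14 (adjusted p = 0.00439), and the difference after stroke was -0.39 (adjusted p = 0.189). Of 12 genes of the A2 set, 7 rose without and 10 with microglia, and 1 was below and 1 above 0. Of 12 fibroblast and matrix genes, 1 rose without and 6 with microglia, 6 were below 0 and 0 above, and the median was -0.81. Col1a1, a fibrillar collagen chain, was at 3.87 and 5.82 CPM in tMCAO_MG_DE and at 3.59 to 8.16 CPM in sham_MG_DE, against 8.88 to 24.6 CPM in tMCAO_MG_CON and 3.33 to 4.37 CPM in sham_MG_CON, with an interaction of -2.06 ± 0.56 (adjusted p = 0.283). No astrocyte or fibroblast gene passed with edgeR, while DESeq2 called 2 pan-reactive, 0 A2 and 1 fibroblast gene and limma 1 pan-reactive gene.

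All 12 heat shock genes rose without microglia and 11 with them, 6 were above 0 in the interaction at an unadjusted p below 0.05 and 0 below, and the median was 0.43, from 0.34 to 0.49 over the 18 settings. None of the 12 passed with edgeR or limma and 1 did with DESeq2. Hspa1a, an inducible chaperone of the HSP70 family, was at 162.3 and 134 CPM in tMCAO_MG_DE and at 7.46, 7.18, 8.23 and 5.87 CPM in sham_MG_DE, against 102, 70.3, 97.5 and 96.3 CPM in tMCAO_MG_CON and 7.03, 8.91 and 8.87 CPM in sham_MG_CON. The sham groups overlapped and both depleted stroke libraries were above all control stroke libraries. Hspa1a rose by 4.37 ± 0.16 without (adjusted p = 8.64e-09) and 3.47 ± 0.16 with microglia (adjusted p = 1.99e-07), and the interaction was 0.90 ± 0.22 (adjusted p = 0.207). Its near copy Hspa1b, with which it can exchange reads, gave 0.88 ± 0.30 (adjusted p = 0.376). Of 11 glycolysis and hypoxia genes, 2 were above 0 and 0 below, with a median of 0.32, led by the glycolytic regulator Pfkfb3 at 0.88 ± 0.21 (adjusted p = 0.202). Of 16 matrix proteases and inhibitors, 3 were above and 1 below 0 at that p, while 10 of the 16 estimates were below 0, with a median of -0.30. Plat, tissue plasminogen activator, was at 56.0 and 55.5 CPM in tMCAO_MG_DE and at 29.5, 26.4, 31.3 and 31.6 CPM in sham_MG_DE, against 26.2, 33.5, 33.9 and 29.2 CPM in tMCAO_MG_CON and 26.6, 29.1 and 26.4 CPM in sham_MG_CON. It rose without microglia by 0.91 ± 0.11 (adjusted p = 0.000428) and changed by 0.17 ± 0.10 with them (adjusted p = 0.341), with an interaction of 0.74 ± 0.15 (adjusted p = 0.125). Of 14 blood-brain barrier genes, 2 were above and 2 below 0, and the list median was 0.09. Above 0, Cldn5, the tight junction claudin, had 0.76 ± 0.18 (adjusted p = 0.207). Those below 0 were Itm2a at -1.28 (adjusted p = 0.411) and Tek at -0.72 (adjusted p = 0.513). In the glycolysis, matrix protease and blood-brain barrier lists no gene passed with edgeR or limma, and DESeq2 called 1 in each.

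**Figure D5:**
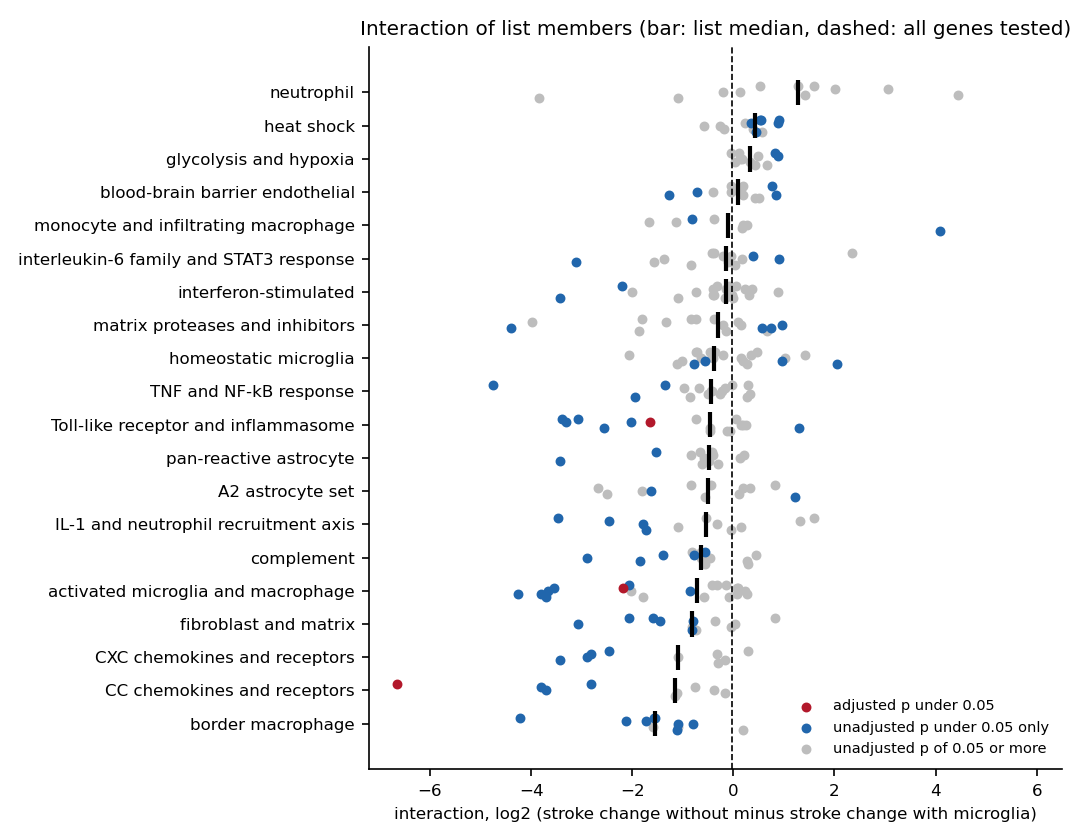
Interaction (x axis, log2) of each tested member of 20 gene lists (rows, ordered by median), with the list median as a bar and the median of all genes as a dashed line. Border macrophage and chemokine lists lie lowest, with medians of -1.56, -1.16 and -1.10. The neutrophil list has the highest median, 1.28, but spreads widely, and the heat shock list lies at 0.43, tightly grouped.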

How the data were processed

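RNA was extracted with a column kit and sequenced as paired-end TruSeq libraries, per the labels' protocols. The authors deposited 4 tables, 1 per group, with whole-number counts per gene and library that were not normalised, per the file headers, and FPKM values, which the authors scaled to gene length and library size. Cufflinks 2.1.1, Cuffdiff and the build mm10 are named in the submitters' processing notes. No source used here names an aligner or says which tool counted the reads and whether strand was used. Groups came from sample titles, and the number of the iDTR locus, which differs between genotype labels, was read as 1 genotype.

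Counts of 29 repeated symbols were summed, 24 names turned into dates were dropped, and genes in only the sham (1002) or tMCAO (1052) tables were not tested. Counts were filtered with filterByExpr (smallest group 2) and scaled by TMM, and a model of 4 group means was fitted with edgeR 4.0.16 in R 4.3.3. The common biological coefficient of variation was 15.2%. The design's plan for FPKM gave way to this count test because the tables held counts. Tests were two-sided, and standard errors were taken from the log2 change and its F statistic, as |log2| over the root of F. Such an error can be too small where a group held few counts, as sham_MG_CON did for Ccl12 and Lilr4b. Ratios with 1 to 3 counts in a group carry exact 95% intervals, which cover counting error only. P-values measure the spread between libraries, which bear different animal identifiers. The scripts were tested on simulated counts. Alternatives were RLE factors, library totals, DESeq2 1.42.0, robust dispersion, limma 3.58.1 on log2(FPKM + 0.1) and log2(FPKM + 1), other filters, each library or a pair left out, a replicate block, other ways to choose stroke genes and a 1.5-fold margin.

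The question, the 39 gene lists (20 of them described) and the rule for named genes were chosen with earlier results of these data known. The rule took 12 interleukin-1 and neutrophil recruitment genes (Gfap and Cx3cr1 among them), up to 12 genes per direction with the largest interaction past the threshold and then by smallest p, up to 10 alike genes by stroke change and up to 4 per list, with a mean of at least 1 CPM for the genes per direction and the alike genes. Genes per direction also had to keep the sign of their interaction without each library in turn, so their stable direction follows from the rule. Of the 112 genes so named, 111 were tested, and those without a value in the text are left out for length. Coordinates are from GENCODE on GRCm38, which is mm10, and promoters from RefSeq.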

Additional observations from a re-analysis of the deposited data

Results flagged for a closer look

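With edgeR on all libraries, the test of the difference in stroke change between depleted and control mice was passed by Yipf6 (-1.51), Lilrb4a (-4.08), Lilr4b (-6.41), Ccl12 (-6.65), Lpl (-2.18), Cd180 (-3.06), Tlr13 (-1.64) and Lingo3 (0.80). Without sham_MG_DE 3 and sham_MG_CON 2 only Yipf6 still passed, and the others had edgeR adjusted p values of 0.0849 to 0.0984.

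Counts of pancreatic hormone genes listed only in the sham tables stood out in the same pair of libraries. Ins2 had 75 counts in sham_MG_DE 3 and 75 in sham_MG_CON 2, Gcg 41 and 36, and Iapp 13 and 13, against 0 for Ins2 and Iapp and 0 to 3 for Gcg in the other 5 sham libraries.

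The cutoff for a library far from the other 3 in its group flags about 1 in 20 by chance, a rate not measured on these data. Of 222 pairs of a gene and a group of 4 libraries, 23 had such a library. In sham_MG_DE 3 these were Cxcr2 at 0.183 CPM (others 0), Gm20431 at 27.2 (10.6 to 13.4), Sat1 at 33.2 (25.95 to 27.1), Ms4a6c at 2.68 (1.91 to 1.95), Ngp at 2.80 (0.0570 to 0.108) and Ltf at 0.975 (0.0455 to 0.162). Gm20431 shares exons with Tmem189 and Ube2v1 on the same strand. In tMCAO_MG_CON 3 they were Vim at 102 CPM (53.7 to 61.5), Lgals3 at 10.8 (4.47 to 4.89), Folr2 at 1.53 (0.340 to 0.480), Thbs1 at 23.8 (2.98 to 5.13) and Cxcl16 at 5.59 (2.48 to 2.81). In sham_MG_DE, replicate 1 was apart for Fkbp1a at 139 CPM (121 to 124) and Mmp12 at 0.0541 (0.285 to 0.318), replicate 2 for Otud5 at 70.0 (66.4 to 66.8), Ccl4 at 1.82 (0.378 to 0.570) and Ccl3 at 0.409 (0.114 to 0.162), and replicate 4 for Tnf at 0 (0.227 to 0.270). In tMCAO_MG_CON, replicate 1 was apart for Mpo at 0.221 CPM (others 0), Slc2a5 at 2.98 (2.29 to 2.35) and Hspe1 at 57.3 (44.5 to 45.9), replicate 2 for Cish at 12.2 (9.71 to 10.1) and Pfkfb3 at 31.2 (43.1 to 44.5), and replicate 4 for Vcan at 22.0 (19.0 to 19.3).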

How the results depend on the processing

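Where 8 genes passed in the interaction with edgeR (1 higher, 7 lower), library totals alone gave 0 higher, no filter and the fit without tMCAO_MG_CON 4 and sham_MG_DE 1 each gave 2 higher, and DESeq2 gave 107 (29 higher, 78 lower). With limma 23 passed on log2(FPKM + 0.1) (3 higher, 20 lower) and 32 on log2(FPKM + 1) (6 higher, 26 lower). The fit without sham_MG_DE 3 and sham_MG_CON 2 gave 1 (0 higher, 1 lower). Leaving out each library gave 1 to 15 calls, 0 to 3 higher and 1 to 12 lower. A correlation of deviations above 0.1 was seen in 1 of 16 same-numbered and 3 of 46 other pairs of libraries, with medians of 0.03 and -0.006. This cannot exclude a pairing by replicate number, because the deviations of the 2 tMCAO_MG_DE libraries mirror each other. A replicate block gave 2 calls (0 higher, 2 lower).

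The 6 stroke genes with a smaller change became 40 with DESeq2, 14 and 11 with limma at the smaller and larger pseudocount, 0 without the pair, 1 with the replicate block, 3 without tMCAO_MG_CON 4 and sham_MG_DE 1, and 1 when chosen by the contrast without microglia. The larger class held 1 with DESeq2 and 1 by that contrast. The undecided became 85 with limma on log2(FPKM + 1). With no fold minimum, 542 were alike and 882 undecided, and a 1.5-fold margin left 7 alike. Leaving out each library gave 0 to 9 smaller, 0 larger, 25 to 68 alike and 230 to 459 undecided.

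Signs changed for genes that had not passed. With limma, at the smaller and larger pseudocount, Il1a gave -0.10 and -0.25, Cxcl2 0.10 and 0.038, Cxcr2 0.46 and 0.076, and Cx3cr1 0.12 and 0.43. At the larger one Cxcl1 gave 0.23, Plce1 0.018 and Cyp1b1 0.13. Without the pair Il1r1 gave -0.12, Cxcr2 1.74, Mpo -3.74, Tmem119 0.15 and Vim -0.12. The replicate block gave 0.14 for Plce1, and the fit without tMCAO_MG_CON 4 and sham_MG_DE 1, chosen after seeing the data, gave 0.088 for Cyp1b1. Leaving out each library, Il1a ranged from -0.42 to 2.08, Il1r1 from -0.023 to 0.46, Cxcl2 from -1.09 to 0.67, Cxcr2 from -2.79 to 1.73, Mpo from -3.56 to 4.75, Tmem119 from -0.76 to 0.11, Hsp25-ps1 from -0.19 to 0.093, Glipr2 from -0.31 to 0.14, Cyp1b1 from -0.60 to 0.40 and Vim from -0.034 to 0.46. The cause was not tested. With 2 libraries in tMCAO_MG_DE, leaving out either leaves 1, which is assumed to vary like the other groups, and low-count genes had wide intervals.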

Other observations

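Among genes that kept their sign without each library, those next in order of p but not past the threshold held several non-immune genes. Fkbp1a, the immunophilin that binds rapamycin, was at 232 and 229 CPM in tMCAO_MG_DE and at 139, 121, 122 and 124 CPM in sham_MG_DE, against 123, 126, 103 and 131 CPM in tMCAO_MG_CON and 301, 255 and 134 CPM in sham_MG_CON, with an interaction of 1.79 ± 0.29 (edgeR adjusted p = 0.0544). The sham controls differed widely among themselves. Hagh, an enzyme of methylglyoxal detoxification, was at 83.7 and 87.3 CPM in tMCAO_MG_DE and at 41.2 to 54.6 CPM in sham_MG_DE, against 51.2 to 55.7 CPM in tMCAO_MG_CON and 46.2 to 60.1 CPM in sham_MG_CON, so the depleted stroke libraries stood above all others, and its interaction was 0.88 ± 0.16 (edgeR adjusted p = 0.0887). Setd1a, a histone methyltransferase subunit, was at 145.04 and 145.68 CPM in tMCAO_MG_DE, above the 91.2 to 111 CPM of the other 11 libraries, with an interaction of 0.45 ± 0.09 (edgeR adjusted p = 0.147). Plek, a myeloid and platelet protein, was at 14.3 and 16.5 CPM in tMCAO_MG_DE and at 11.6 to 15.0 CPM in sham_MG_DE, against 39.0 to 59.1 CPM in tMCAO_MG_CON and 15.1 to 17.3 CPM in sham_MG_CON, with an interaction of -1.33 ± 0.22 (edgeR adjusted p = 0.0579).

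Genes listed only in the tMCAO tables had no sham value and were not tested. Among them Fga, the fibrinogen alpha chain, had 78 and 66 counts in tMCAO_MG_DE, against 1, 26, 4 and 5 in tMCAO_MG_CON, and Csf3, the granulocyte growth factor, had 17 and 18 counts, against 2, 16, 4 and 1.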
